A study of Mus musculus with 6 samples.

Results

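The genes described here are 10 components of the mitochondrial pathway of apoptosis, chosen by name out of the 22413 genes in the count table: the pore-forming effector Bax, the antiapoptotic Bcl2, Bcl2l1, Bcl2l2 and Mcl1, the BH3-only genes Bcl2l11, Bbc3, Bid and Bad, and Cycs, which encodes somatic cytochrome c. All 10 were found in the table. They were followed in bulk RNA sequencing of retinal ganglion cells, which send the axons of the optic nerve, from adult mice. The 3 Cre libraries, S1 to S3, carried the genotype Tgfbr1flx/flx;Vglut2Cre/+, in which both copies of the TGF-beta type I receptor gene are floxed and 1 Vglut2 (Slc17a6) allele drives Cre recombinase. The 3 control libraries, C1 to C3, were Tgfbr1flx/flx;Vglut2+/+, with the same floxed alleles and no Cre. Vglut2 is a glutamate transporter gene of many excitatory neurons, ganglion cells among them. Whether a library came from 1 animal or from several pooled is not stated in the labels, and the spread behind the p-values may therefore be technical.

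Proteins of the Bcl2 family decide whether the outer mitochondrial membrane stays closed. Bax forms pores in that membrane, the antiapoptotic members hold Bax and its relative Bak in check, and BH3-only proteins, which are induced or activated by stress, neutralise the antiapoptotic members or activate Bax directly. Once the membrane is open, cytochrome c leaves the intermembrane space and joins Apaf1 to activate caspases, while in healthy cells it carries electrons between complexes III and IV of the respiratory chain. In mice, ganglion cells without Bax survive crush of the optic nerve.

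The promoters of Cycs and Bax are shown because these were the members whose 3 Cre libraries held 10 counts or more each and all lay above the controls. The 250 bases before the start of the gene come from RefSeq on GRCm38.p6 and run 5′ to 3′ on the minus strand, at chr6:50566570-50566819 for Cycs and chr7:45466899-45467148 for Bax. Capitals mark TGACGTCA (the cyclic AMP response element) and CCAAT in Cycs, and GGGCGG or its reverse complement CCGCCC (the GC box) and CACGTG (an E-box) in Bax.
Cycs: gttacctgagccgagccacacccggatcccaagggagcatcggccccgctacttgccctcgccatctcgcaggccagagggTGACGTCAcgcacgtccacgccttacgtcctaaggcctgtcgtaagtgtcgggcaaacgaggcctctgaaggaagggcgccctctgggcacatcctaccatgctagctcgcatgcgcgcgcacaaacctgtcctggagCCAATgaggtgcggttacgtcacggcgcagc
Bax: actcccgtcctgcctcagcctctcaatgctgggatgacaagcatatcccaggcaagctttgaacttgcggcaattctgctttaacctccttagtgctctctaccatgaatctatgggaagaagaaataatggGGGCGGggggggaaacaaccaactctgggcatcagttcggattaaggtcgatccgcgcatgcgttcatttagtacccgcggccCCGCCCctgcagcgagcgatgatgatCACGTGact
On both strands, TGACGTCA was found in 1.55% of the 32851 promoter windows of this length, CACGTG in 6.02%, GGGCGG in 32.7% and CCAAT in 33.8%. Neither promoter held TATAAA (in 12.4% of windows) or CAGAC, a SMAD-type motif (in 42.2%). Among the other 8 members, with 14 windows between them, TGACGTCA was in none. The Bcl2 window held 7 GC boxes and those of Bcl2l1 held 0. These matches describe the letters and do not show that a factor binds.

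The 6 libraries held 7486359 to 21126291 gene counts, and their gene content was sparse and uneven. Detection, taken as 10 counts or more, covered 6738, 7209 and 5790 genes in S1, S2 and S3, and 4258, 4463 and 4863 in C1, C2 and C3. Of the 11977 genes detected in some library, 32.7% were detected in 1 library alone and 9.99% in all 6. Markers of ganglion cells were present, with a summed level over 14 genes of 4102 to 5556 CPM (counts scaled to the library total) in the Cre libraries and 1054 to 6200 CPM in the controls, the lowest in C3. In that library 7 of the 14 were detected, against 8 to 11 in the others. It had 0 counts of Slc17a6 and 1 of Thy1, but 257 CPM of Rbpms and 407 CPM of Uchl1. Its 10 endothelial markers summed to 6707 CPM, against 168.3 to 742 CPM in the other 5 libraries. Markers of Muller glia, 8 genes, summed to 131, 228 and 509 CPM in S1, S2 and S3 and 512, 779 and 732 CPM in C1, C2 and C3. Each Cre library thus lay below every control, though S3 and C1 were nearly equal. The part of these glial markers in the levels of the members was not tested. Over the 6 libraries amacrine markers summed to 207 to 909 CPM, highest in S2. Pericyte markers summed to 0.0861 to 546 CPM, highest in C2, where Acta2 alone gave the sum. In S3 they summed to 534 CPM, with Abcc9, Rgs5 and Pdgfrb at 346, 111 and 75.2 CPM. Pou4f2, a ganglion cell transcription factor, had at most 1 count in any library. Tgfbr1 had 46, 0 and 793 counts in S1, S2 and S3 and 1, 0 and 1538 in C1, C2 and C3, counted over the whole gene, so it does not check deletion of the floxed part. In bulk samples, fewer cells of a type and less RNA per cell cannot be told apart.

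None of the members passed the comparison of Cre with control libraries. Of the 10 members, 6 were kept by the filter on low counts (Bax, Bcl2l1, Bcl2l2, Mcl1, Bcl2l11 and Cycs), and 0 of these had a Benjamini-Hochberg adjusted p under 0.05 in edgeR's quasi-likelihood test, against a background of 0% of 5727 genes tested in either direction. DESeq2 and limma voom called 0 members too, where they called 885 and 88 genes of the table (15% and 1.54% of those with an adjusted p). In DESeq2, Bax, Bcl2, Bbc3, Bid and Bad had no p, and 0 of the other 5 members had an unadjusted p under 0.05. At an unadjusted p under 0.05 edgeR had 2 members, Bax and Cycs, both higher in the Cre libraries, beside 4.49% of all genes tested in that direction and 0 members lower, beside 0.419%. Both genes passed the filter, which Bax did through its Cre libraries alone. The median log2 fold change of the 6 members was 0.88 and that of all genes tested was 0.14.

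**Figure D1:**
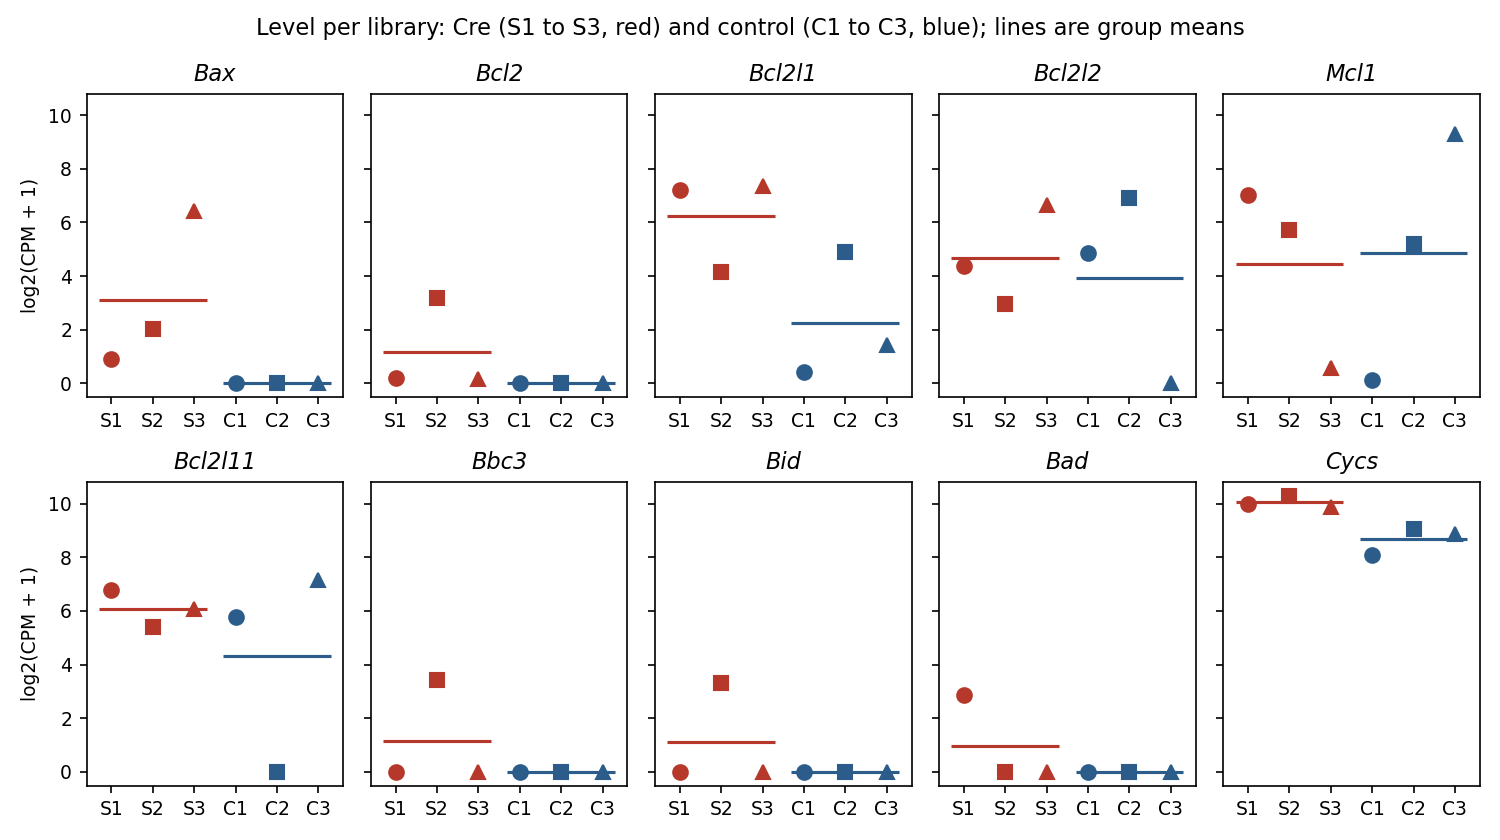
Level of each of the 10 genes in every library, as log2(CPM + 1), with Cre libraries S1 to S3 in red left of control libraries C1 to C3 in blue, and horizontal lines at the group means on this scale. Cycs was high in all 6 libraries with its Cre points above its control points, Bax was at 0 in every control, and Bbc3, Bid and Bad each had counts in 1 Cre library only.

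Cycs was the only member detected in all 6 libraries, and by CPM it was the highest member in each of them but C3, where Mcl1 was higher. The gene lies on mm10 chromosome 6 (50562563 to 50566538, minus strand). It had 13977, 26477 and 7582 counts in S1, S2 and S3, and 3130, 4015 and 7621 in C1, C2 and C3. Scaled to library totals these were 1003, 1253 and 936 CPM in the Cre libraries and 269.6, 536 and 465 CPM in the controls. Every Cre library lay above every control library, as was the case for 10.4% of the genes tested. The mean was 1064 ± 167 CPM in the Cre libraries and 424 ± 138 CPM in the controls (SD, n = 3 each), a ratio of 2.51. The edgeR log2 fold change was 1.48 ± 0.63 (SE derived from the F statistic), with an unadjusted p of 0.0290 and an adjusted p of 0.832. DESeq2 gave a log2 fold change of 1.16 with a larger SE, 2.05.

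The fold change of Cycs also spanned the narrowest range of the 6 over these alternatives. It was positive in all 16 alternative fits, from 1.16 to 1.61, and lay at 1.31 to 1.61 when any 1 library was left out, with unadjusted p-values of 0.0336 to 0.142 in those fits and adjusted p-values of 0.417 to 1.00. The median of all genes moved with the setting, from 0.14 with TMM to -0.13 with DESeq2's size factors and 1.58 with voom. Relative to that median, Cycs lay at 1.34 with TMM and 1.31 with DESeq2's size factors, but at 0.53 with DESeq2, 0.44 on log2(FPKM + 0.1), 0.39 with the replicate block, 0.055 with no filter and -0.010 with voom, where it did not stand above the genes as a whole. With 1 library left out this value ran from 0.75 without C1 to 1.53 without S3. Within a group the highest library was 1.34 times the lowest among the Cre libraries and 1.99 times among the controls. Of the other members counted in all 3 Cre libraries, the least uneven was Bcl2l11, at 2.64 times. By FPKM, which divides by gene length, Cycs ranked 357, 320 and 352 among all genes in S1, S2 and S3, and 958, 620 and 739 in C1, C2 and C3. Cytochrome c has processed pseudogenes in the mouse genome, 3 of them listed under its name in RefSeq, so reads shared with these copies make its count uncertain.

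Bax, the effector, was counted in every Cre library and in no control. The gene lies on chromosome 7 (45461697 to 45466898, minus strand) and had 12, 65 and 684 counts in S1, S2 and S3 and 0 in C1, C2 and C3. These were 0.861, 3.08 and 84.5 CPM in the Cre libraries, so that S3 held most of the signal and S1 was just over the detection minimum of 10 counts. A count of 0 allows up to 0.258, 0.401 and 0.183 CPM in C1, C2 and C3. Taking 3 counts over the control group as its floor, the pooled Cre counts were at least 208-fold higher, and at least 26.0-fold higher without S3. S3 gave 684 of the 761 pooled counts, and S1, at 0.861 CPM, stood far nearer the 0.401 CPM allowed in C2. These folds cover counting error of the pooled counts and not the spread between libraries, so they do not bound the difference between genotypes. The unadjusted p was 0.0191 and the adjusted p 0.721 in edgeR, and the unadjusted p was 0.0227 without S3 and 0.0650 to 0.0721 without any 1 control. The fitted log2 fold change, 11.48 ± 4.49, rests on groups at 0 and is no bound. Of its exonic bases in GENCODE M21, 192 (12.2%) also belong to Gm45808 on the same strand.

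Bax shared its absence from the control counts with 4 sparser members. Bcl2 (chromosome 1, 106538178 to 106714274), the founding antiapoptotic gene, had 2, 169 and 1 counts in S1, S2 and S3, and Bbc3 (chromosome 7, 16308393 to 16318205), the p53-induced BH3-only gene also called Puma, had 0, 204 and 0. Bid (chromosome 6, 120891930 to 120916853), which caspase 8 cleaves to link death receptors to mitochondria, had 0, 189 and 0 counts, and Bad (chromosome 19, 6941861 to 6951899), which is held inactive by survival kinases, had 88, 0 and 0. All 4 had 0 counts in C1, C2 and C3, and none was kept by the filter. Thus 5 of 10 members had 10 counts or more in some Cre library and 0 in every control, a pattern of 16.9% of all detected genes, and 0 of 10 had the reverse, a pattern of 4.48%. Each of the 4 was detected in 1 library alone, S2 for Bcl2, Bbc3 and Bid and S1 for Bad, so the group difference rests on that library. The most deeply sequenced library was S2. Thinned to 7486359 counts, S2 still held 65, 70 and 73 counts of Bcl2, Bbc3 and Bid.

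Bid also shares 628 exonic bases (17.7% of its own) with Bcl2l13 on the opposite strand, and Bcl2l13 had 1, 920 and 0 counts in S1, S2 and S3 and 0 in every control. Bid and Bcl2l13 were thus both detected in S2 alone, and since the strand setting is not given in the sources used here, their reads may not be told apart. Bad shares 524 bases (20.5%) with Gpr137 on the opposite strand, which had 0 counts in S1, where Bad had its 88.

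Bcl2l1, which encodes Bcl-xL, had the largest ratio of group means, 10.6, among antiapoptotic genes counted in both genotypes. It lies on chromosome 2 (152780668 to 152831728, minus strand) and had 2043, 358 and 1309 counts in S1, S2 and S3, against 4, 215 and 28 in C1, C2 and C3. These were 147, 16.9 and 162 CPM in the Cre libraries and 0.345, 28.7 and 1.71 CPM in the controls. The groups overlapped, since S2 lay below C2. The mean was 108 ± 79.5 CPM in the Cre libraries and 10.3 ± 16.0 CPM in the controls (SD, n = 3 each), and the log2 fold change was 3.73 ± 3.31 with an edgeR adjusted p of 1.00. The sign was positive in all 16 alternatives, from 3.23 to 6.78, with unadjusted p-values of 0.0719 to 0.445.

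Mcl1, a short-lived antiapoptotic protein, varied widely within both genotypes. The gene (chromosome 3, 95658788 to 95663176) had 1791, 1101 and 4 counts in S1, S2 and S3, and 1, 264 and 10178 in C1, C2 and C3. These were 129, 52.1 and 0.494 CPM in the Cre libraries and 0.0861, 35.3 and 622 CPM in the controls. Libraries near 0 occurred in both genotypes, and C3 alone held nearly all of the control counts. The log2 fold change was -1.59 ± 2.77 with all libraries (edgeR adjusted p = 1.00) and turned to 2.24 without C3. C3 is the library with the highest endothelial and lowest ganglion cell marker sums given above. Their part in the level of Mcl1 was not tested.

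Bcl2l2, which encodes Bcl-w, and Bcl2l11, the BH3-only gene also called Bim, had similar means in both groups and missed 1 control library each. Bcl2l2 (chromosome 14, 54883377 to 54888234) had 278, 145 and 804 counts in S1, S2 and S3, against 329, 896 and 0 in C1, C2 and C3. Its mean was 42.0 ± 50.01 CPM in the Cre libraries and 49.3 ± 62.5 CPM in the controls (SD, n = 3 each), with a log2 fold change of -0.089 ± 3.14. Bcl2l11 (chromosome 2, 128126038 to 128162547) had 1519, 873 and 540 counts in S1, S2 and S3, against 622, 0 and 2286 in C1, C2 and C3. Its mean was 72.3 ± 34.2 CPM in the Cre libraries and 64.4 ± 70.4 CPM in the controls, with a log2 fold change of 0.27 ± 3.01. The standard errors of about 3 on the log2 scale mean that these data could not show even large differences for either gene. For both, the sign turned under some alternatives: Bcl2l2 was positive in 7 of 16 and Bcl2l11 negative in 4 of 16. C3, where endothelial markers were highest, had the most Bcl2l11 and no Bcl2l2, and the part of its cell makeup in these levels was not tested. Bcl2l2 shares 594 exonic bases (13.3%) with Gm20521, annotated on the same strand.

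**Figure D2:**
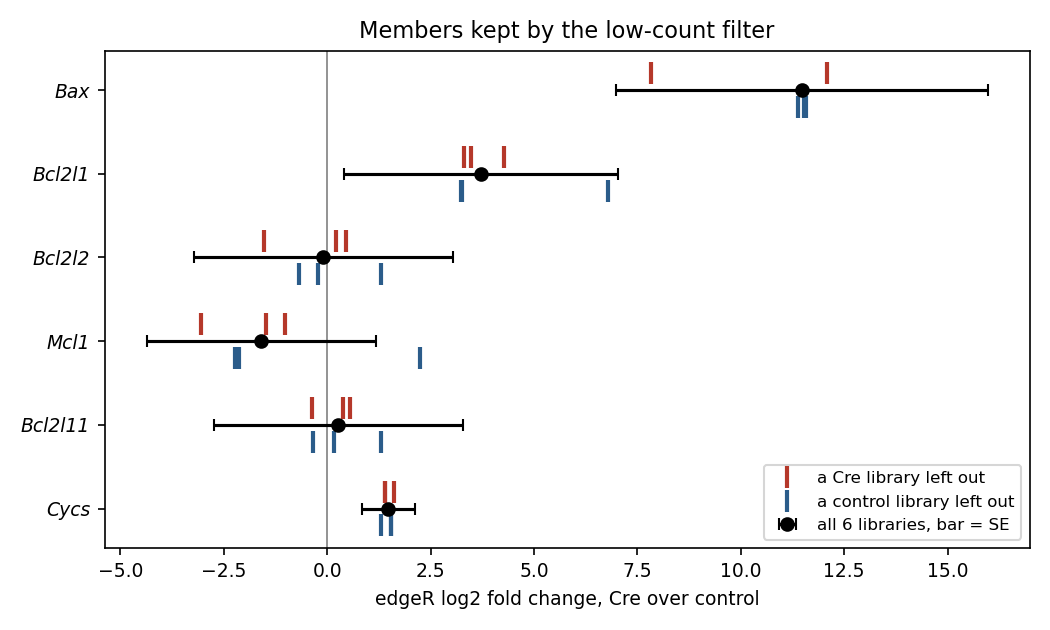
edgeR log2 fold change, Cre over control, of the 6 members kept by the low-count filter, with black points and bars for the estimate and SE from all 6 libraries and ticks for fits without 1 Cre library (red) or 1 control library (blue). Cycs stayed between 1.31 and 1.61, whereas Bcl2l2, Mcl1 and Bcl2l11 had ticks on both sides of 0.

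The most abundant antiapoptotic gene differed from library to library. By the deposited FPKM, Bcl2l1 led in S1 and S3 with 69.5% and 66.2% of the summed level of the 4 genes, and Mcl1 led in S2 with 42.5%. In the controls Bcl2l2 led in C1 and C2 with 98.4% and 70.3%, and Mcl1 led in C3 with 99.3%. The summed level was 65.1, 14.0 and 75.3 FPKM in S1, S2 and S3, and 7.36, 43.5 and 71.8 FPKM in C1, C2 and C3, so the groups overlapped. Every library had at least 1 antiapoptotic gene detected, with 3, 4 and 2 of the 4 in S1, S2 and S3 and 1, 3 and 2 in C1, C2 and C3. Per length, the 4 BH3-only genes together reached 13.2, 10.4 and 5.56 FPKM in the Cre libraries and 4.47, 0 and 11.7 FPKM in the controls, and Bax reached 0.899, 3.21 and 88.2 FPKM in the Cre libraries. In S3 the Bax level was thus above the summed antiapoptotic level, which was so in no other library.

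These orders depend on the gene length used. The deposited FPKM imply a length of 8725 bases for Mcl1 and 3242 for Bcl2l1, where GENCODE M21 has 3418 and 4586 exonic bases. With the GENCODE lengths, an alternative added after seeing the data, Mcl1 led in S1 with 50.8% and Bcl2l1 held 43.2%, while the leading gene in the other 5 libraries did not change. On the same lengths Bax in S3 was at 53.6 CPM per kilobase and the 4 antiapoptotic genes summed to 57.7, so that their order turned.

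**Figure D3:**
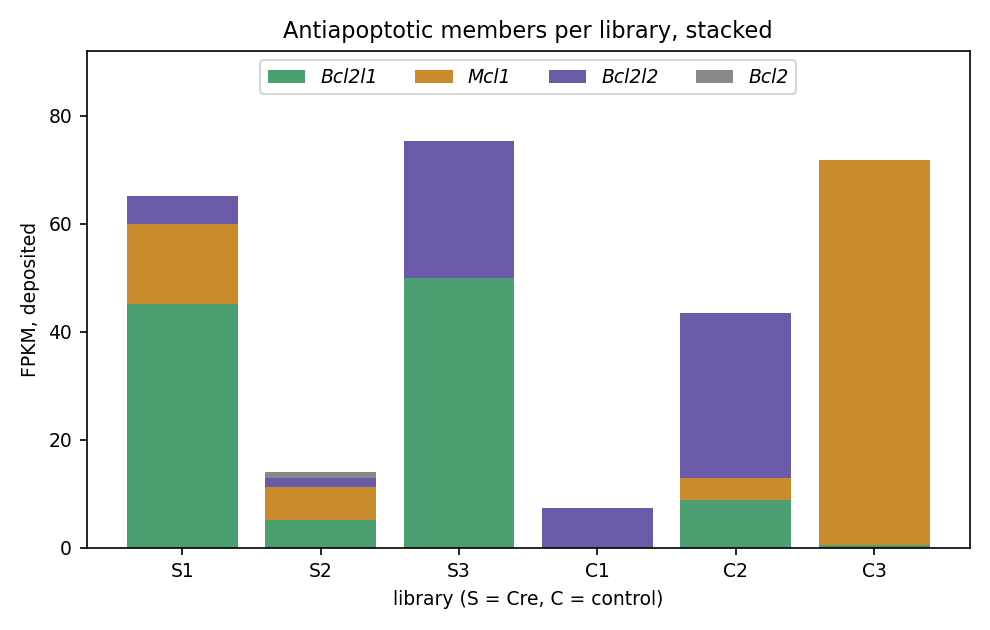
Stacked deposited FPKM of the 4 antiapoptotic genes in each library, Cre (S1 to S3) left of control (C1 to C3). The sums run from 7.36 FPKM in C1 to 75.3 FPKM in S3, and the leading gene changes between libraries within both genotypes.

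Every Cre library detected more members, and more genes, than any control library. At 10 counts or more, 7, 9 and 5 of the 10 members were detected in S1, S2 and S3, and 3, 4 and 4 in C1, C2 and C3. After every library was thinned to 7486359 counts these were 6, 9 and 5 in the Cre libraries and 3, 4 and 3 in the controls, beside 6298, 6845 and 5752 genes of the whole table in S1, S2 and S3 and 4060, 4463 and 4643 in C1, C2 and C3. The part of this overall detection in the higher member counts of the Cre libraries was not tested. Of the 58 other pathway genes, 34, 35 and 30 were detected in S1, S2 and S3 and 25, 27 and 28 in C1, C2 and C3.

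**Figure D4:**
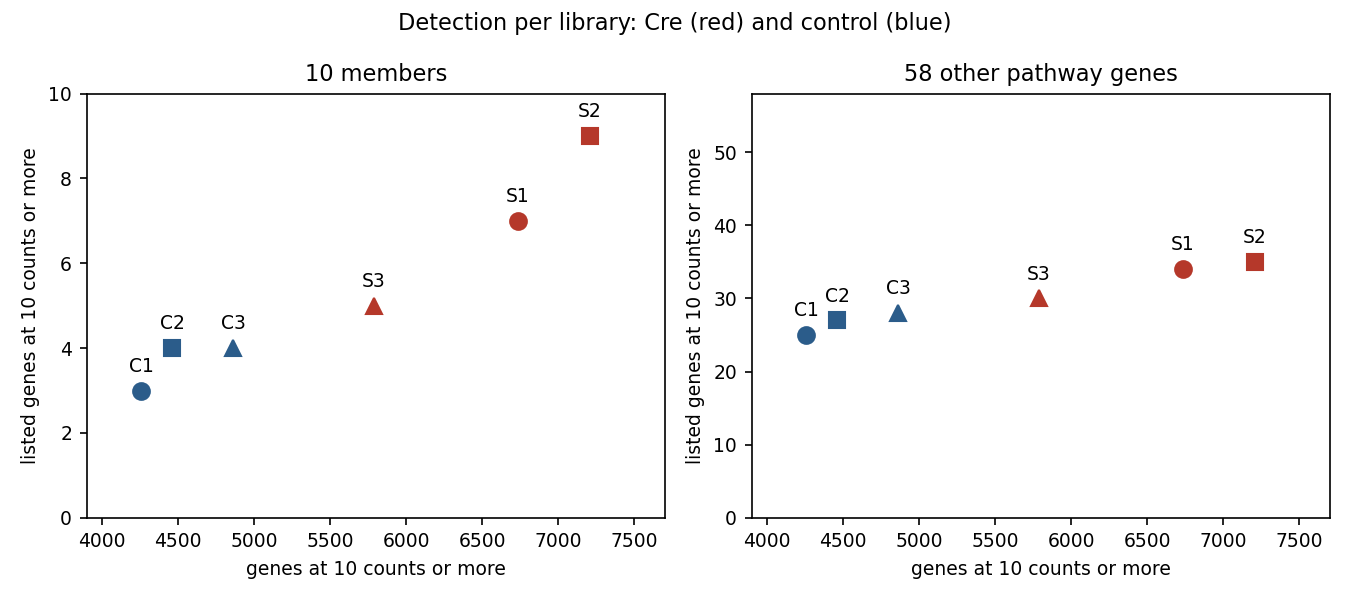
Listed genes at 10 counts or more against all genes at 10 counts or more in the same library, for the 10 members (left) and 58 other genes of the pathway (right), with Cre libraries in red and controls in blue. The Cre libraries lie to the upper right of the controls in both panels, from 5 to 9 members against 3 or 4.

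Beyond the members, 62 genes of the pathway were listed, of which 58 were analysed and 31 were kept by the filter. None of the 31 had an adjusted p under 0.05 in edgeR, beside 0% of all genes tested in either direction. At an unadjusted p under 0.05 there were 2, both positive. The log2 fold change was positive for 19 of the 31, with a median of 0.42, beside 54.2% positive and a median of 0.14 among all genes tested. For 4 of the 31 every Cre library lay above every control (among them Bnip3l, Dnm1l and Tpt1) and for 1 every Cre library lay below (Dynll1), beside 10.4% and 2.3% of all genes tested.

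Downstream of cytochrome c, the apoptosome and caspase genes were nearly all close to 0. Of 8 analysed, 2, 2 and 3 were detected in S1, S2 and S3 and 1, 0 and 1 in C1, C2 and C3. Apaf1, the scaffold that cytochrome c binds, had 0, 194 and 1 counts in S1, S2 and S3 and 1, 0 and 0 in C1, C2 and C3. Casp9, the initiator that the scaffold activates, had at most 13 counts in any library. Apaf1 and Casp9 were named after their values were seen.

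Other family members at mitochondria were mostly sparse. Only Bnip3 and Bnip3l, both receptors for the removal of mitochondria, were kept by the filter out of 13 analysed. Bnip3l had 5789, 6573 and 2078 counts in S1, S2 and S3, against 529, 0 and 783 in C1, C2 and C3, and its log2 fold change was 3.43 ± 2.34 with an edgeR adjusted p of 1.00. Bnip3 overlapped between groups, at 378 ± 182 CPM in the Cre libraries and 354 ± 320 CPM in the controls (SD, n = 3 each).

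Among 9 genes of the outer membrane and of mitochondrial dynamics kept by the filter, 7 were positive and none had an unadjusted p under 0.05. Dnm1l, the GTPase that divides mitochondria, had 363, 650 and 406 CPM in S1, S2 and S3 and 120, 84.4 and 64.2 CPM in C1, C2 and C3, with no overlap (log2 fold change 2.46 ± 1.36, edgeR adjusted p = 1.00). Vdac3, an outer membrane channel, was at 330.4 ± 91.3 CPM in the Cre libraries and 685 ± 402 CPM in the controls, and Vdac1 at 196 ± 95.0 and 85.1 ± 70.3 CPM. Mfn2, which fuses mitochondria, was at 225 ± 172 CPM in the Cre libraries and 73.0 ± 106 CPM in the controls.

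Among genes whose products bind Bcl2 proteins or set their turnover, 9 were kept by the filter and 5 were positive. Tpt1, which stabilises Mcl1, had 1454, 1865 and 1606 CPM in S1, S2 and S3 and 746, 1046 and 631 CPM in C1, C2 and C3. Its groups did not overlap, and its log2 fold change was 1.15 ± 0.48 with an edgeR unadjusted p of 0.0260 and an adjusted p of 0.815. Dynll1, a dynein light chain that tethers Bim to microtubules, ran the other way without overlap, at 169, 199 and 35.3 CPM in the Cre libraries and 422, 358 and 411 CPM in the controls (-1.42 ± 1.44, adjusted p = 1.00). Usp9x, a deubiquitinase of Mcl1, had 223, 0 and 0 counts in S1, S2 and S3 and 301, 4 and 3621 in C1, C2 and C3, and Fbxw7, a ubiquitin ligase subunit that targets Mcl1, had 73, 220 and 27 counts against 0, 0 and 116.

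Inhibitors of apoptosis varied within both genotypes, and Xiap and Birc6 had their highest counts in C3, the library with 6707 CPM of endothelial markers, whose part was not tested. Xiap, which blocks caspases directly, had 1029, 675 and 63 counts in S1, S2 and S3 and 5, 0 and 5320 in C1, C2 and C3. Birc6 had 277, 6590 and 811 counts in the Cre libraries and 2769, 747 and 11701 in the controls. Birc2 had 3731, 2367 and 1 counts in the Cre libraries and 0, 1645 and 0 in the controls. Diablo, a mitochondrial protein that relieves caspases of these inhibitors, was detected in all 6 libraries, at 111 ± 42.3 CPM in the Cre libraries and 68.5 ± 48.7 CPM in the controls.

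Of the upstream transcription factors and their regulators, 6 were kept by the filter, 2 positive and 4 negative. Trp53, which activates Bax and Bbc3, had 283, 0 and 688 counts in S1, S2 and S3 and 1425, 0 and 0 in C1, C2 and C3. Bax was highest in S3, Bbc3 was counted in S2 alone and Trp53 was highest in C1. In libraries this sparse, counts of 0 cannot relate these genes, and the part of Trp53 in their levels was not tested. Ddit3, a stress factor, had 512, 3243 and 4699 counts in the Cre libraries and 537, 1744 and 1930 in the controls. The p53 antagonists Mdm2 and Mdm4 had 482, 2252 and 479 counts and 0, 71 and 0 counts in the Cre libraries, against 2723, 75 and 1617 counts and 7, 223 and 848 counts in the controls.

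The genes most like Cycs and Bax over the 6 libraries were found by the Pearson correlation of log2(CPM + 1) with 5458 other genes. With so many genes and 6 libraries, high values arise for many genes, 83 with r above 0.9 for Cycs and 36 for Bax, so these are descriptions. Closest to Cycs were Rbm33 (r = 0.99), Trappc6b (0.97) and Cyc1 (0.96), the cytochrome c1 subunit of complex III. Cyc1 had 72.2, 163 and 174 CPM in S1, S2 and S3 and 0.0861, 23.2 and 13.2 CPM in C1, C2 and C3. Closest to Bax were Zfp81 (r = 0.999), Cecr2 (0.98) and Coa3 (0.97), of which Zfp81 and Cecr2 were high in S3 alone, at 117 and 196 CPM.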

How the data were processed

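Gene counts and FPKM for 6 libraries were taken from the deposited tables, with 0 columns of other samples. The submitters' processing notes name mm10, HTSeq, HISAT2, fastp, DESeq2 and R 3.2.0 without their roles; neither the strand setting nor the annotation is given in the sources used here. The deposited FPKM equal counts divided by a fixed length and the library total (100% of implied lengths within 0.01 of a whole base), so counts were the main measure. Libraries were made from little RNA without molecular identifiers, so floors (3 counts) cover counting error only.

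Cre was compared with control in edgeR 4.0.16 (R 4.3.3) by a quasi-likelihood F test with robust fitting, TMM scaling and filterByExpr. Adjustment was by Benjamini-Hochberg over 5727 genes, at a threshold of 0.05. The code was tested on data simulated with a far smaller spread between libraries. In the real data that spread, edgeR's biological coefficient of variation, was 2.04, so the simulation does not show how the test performs here. DESeq2 1.42.0, limma 3.58.1 (voom, and log2(FPKM + 1) or + 0.1), other scalings and filters, a replicate block and each library left out were alternatives. The SE of an edgeR log2 fold change was taken as its absolute value divided by the square root of the F statistic. With DESeq2, 16513 genes had no adjusted p. Members and lists were chosen with earlier results of these data known. Named genes are all members, up to 4 of each pathway list with the smallest p, and the 3 genes most like Bax and Cycs, without predicted genes. A gene that the rule names is not reported here. Coordinates are from GENCODE M21 (GRCm38, called mm10), and all 10 members matched RefSeq promoters.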

Additional observations from a re-analysis of the deposited data

How the results depend on the processing

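The count of members called was 0 in all 16 alternatives. The count of all genes called was 0 in edgeR, and 885 with DESeq2, 88 with limma voom and 0 to 7 with 1 library left out. At an unadjusted p under 0.05 edgeR had 281 genes. Same-numbered libraries did not deviate together (correlations of their deviations from the group means -0.024, 0.026 and -0.011). Libraries with different numbers ran from -0.047 to 0.056. No pairing by number was seen, but libraries this sparse and variable could hide one, so it is not excluded. With the replicate block in edgeR 0 genes and 0 members were called, and 197 genes had an unadjusted p under 0.05. Bax, Bcl2l1 and Cycs kept their sign throughout; Bax could not be fitted without S2, where it failed the filter. Signs turned for the other 3 members kept by the filter. Bcl2l2 was 2.27 with voom, 0.26 on log2(FPKM + 1) with and without the filter, 1.15 on log2(FPKM + 0.1), and -1.53 to 1.30 with 1 library left out (0.23, 0.46 and 1.30 without S1, S2 and C2). Mcl1 was 0.25 with voom, 0.84 with the block, and -3.06 to 2.24 with 1 library left out (2.24 without C3). Bcl2l11 was -0.075 with DESeq2's size factors in edgeR, -0.10 with DESeq2, and -0.36 to 1.30 with 1 library left out (-0.36 and -0.34 without S1 and C2). The cause was not tested. At a minimum of 1 count, 5 members were detected in C1 in place of 3.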

Other observations

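Further family members appeared in single libraries of both genotypes. Bcl2a1b, an antiapoptotic gene of blood cells, had 1280, 1 and 0 counts in S1, S2 and S3 and 4060, 0 and 0 in C1, C2 and C3, while its near-identical relatives Bcl2a1a and Bcl2a1d had at most 3 and 34 counts in any library, so reads may be split among these copies. Summed over 8 microglial markers the libraries held 20.7, 10.2 and 0.988 CPM in S1, S2 and S3 and 1.89, 0 and 0 CPM in C1, C2 and C3. Pmaip1, the BH3-only gene called Noxa, had 1, 1952 and 0 counts in S1, S2 and S3 and 1, 1008 and 0 in C1, C2 and C3. Hrk, a BH3-only gene of neurons, had 77, 0 and 0 counts in the Cre libraries and 0, 113 and 0 in the controls. These genes were chosen after their values were seen.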
